A study of Bos taurus with 19 samples.

Results

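INSL3, the peptide hormone of theca cells, and 5 transcription factors of steroidogenic or gonadal cells (NR5A1, NR0B1, GATA4, GATA6 and NR2F2) were followed in the bovine theca interna. They were taken as every probe set on the array whose single annotated gene symbol is 1 of these 6 names, which gave 12 of 24127 probe sets and 6 of 9155 named genes. INSL3, GATA4 and GATA6 have 1 probe set each, NR0B1 has 2, NR2F2 has 3 and NR5A1 has 4. The samples were the theca interna of single follicles from ovaries of non-pregnant Bos taurus heifers, dissected after the granulosa cells had been scraped off, with 1 follicle on each of 19 arrays. There were 5 small atretic follicles, 4 large healthy follicles of over 9 mm, and 10 small healthy follicles of 3 to 5 mm, of which 5 had rounded and 5 had columnar basal granulosa cells. The sample records give the same 3 to 5 mm for the atretic follicles and no age for the animals. Whether each follicle came from another animal is not stated there, and the p-values refer to the variation among follicles only. Theca interna is a mixed tissue of androgen-producing cells, fibroblasts, vessel cells and immune cells, and in such RNA fewer cells of a type and less RNA per cell cannot be told apart.

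INSL3 is secreted by the androgen-producing cells of the theca and by the Leydig cells of the testis. NR5A1, also called steroidogenic factor 1, is a nuclear receptor that binds the promoters of most genes of steroid synthesis, and NR0B1, also called DAX-1, is a nuclear receptor without a classical DNA-binding domain that represses NR5A1. GATA4 and GATA6 are zinc finger factors that act with NR5A1 on many of the same promoters, and NR2F2, also called COUP-TFII, is an orphan nuclear receptor of mesenchymal, stromal and venous cells that is also present in steroidogenic cells.

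INSL3 was among the brightest transcripts of the theca in every follicle, and its level differed between follicle types by less than the spread between follicles. Its log2 RMA signal, a log2 intensity summarised over the probes of a probe set, was 12, 12, 12.4, 11.8 and 10 in atretic replicates 1 to 5. In large follicles it was 11.9, 12.1, 12.5 and 12.4 in replicates 1 to 4. In small healthy follicles it ran from 11.7 to 12.4, with a median of 11.9. Thus 18 of the 19 follicles lay between 11.7 and 12.5, and atretic replicate 5 lay 1.7 below the lowest of the others. Ordered by signal on each array, INSL3 was between the 3rd and the 66th brightest probe set on these 18 arrays and the 228th in atretic replicate 5. Probe sets differ in how well they bind, so this order is a position on the array and not an amount of RNA. The brightest signal of any array was 12.6 to 12.8, so INSL3 lay close to the top of the scale.

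The order of the group means of INSL3 was large (12.225 ± 0.28, SD, n = 4), rounded and columnar (12 ± 0.29 and 12 ± 0.24, SD, n = 5 each), then atretic (11.64 ± 0.94, SD, n = 5). No neighbours in this order passed the test. The difference between atretic and small healthy follicles was -0.36 (SE 0.28, limma's adjusted p = 0.328), with a 95% interval of -0.95 to 0.23. Without atretic replicate 5 it was 0.05 (adjusted p = 0.819), so this 1 follicle set both the size and the sign of the difference. Large and small healthy follicles differed by 0.225 (SE 0.15, adjusted p = 0.354). B3GNT3, a glycosyltransferase gene that lies beside INSL3 in the ARS-UCD2.0 assembly, had 4.30 in atretic and 4.30 in small healthy follicles (adjusted p = 1). JAK3, the neighbour on the other side, was not analysed here.

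**Figure D1:**
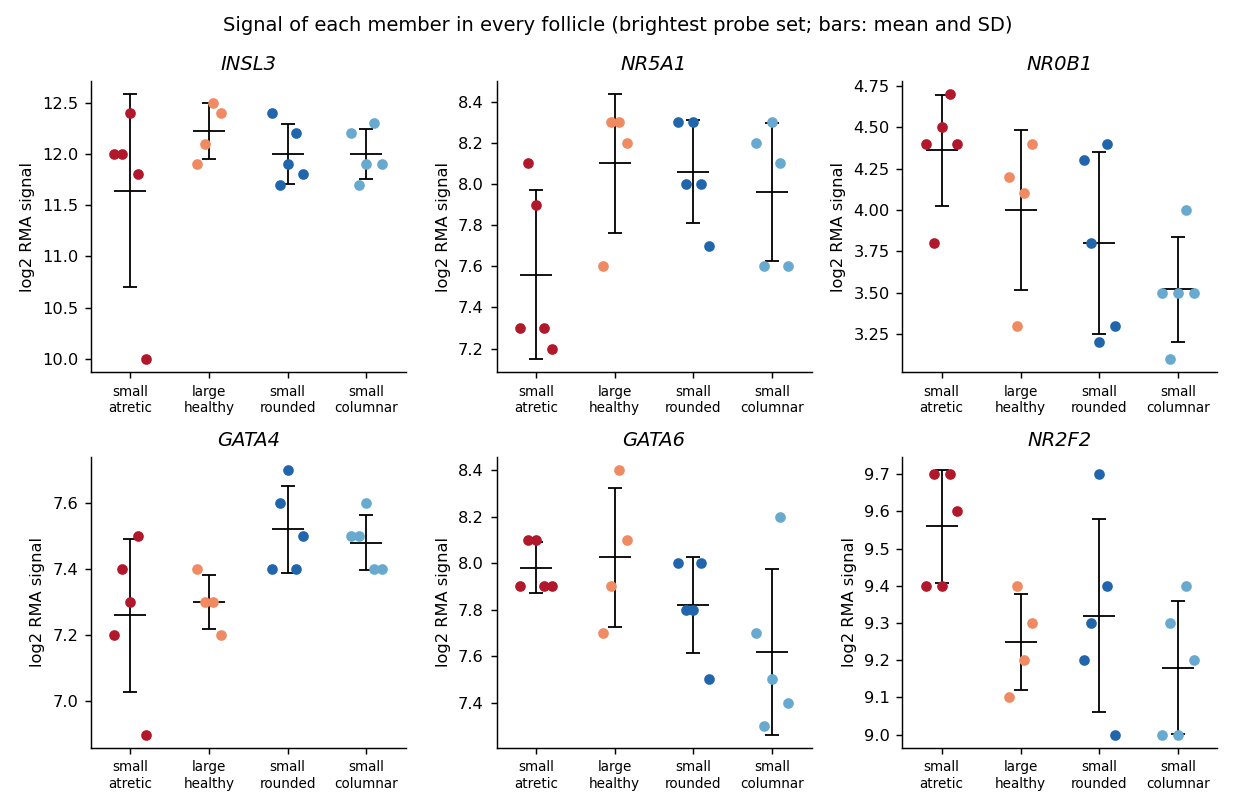
Log2 RMA signal (y axis, scaled separately in each panel) of the brightest probe set of each of the 6 genes in 19 follicles, 1 dot per follicle, by group (5 small atretic, 4 large healthy, 5 small rounded, 5 small columnar), with horizontal bars for the mean and error bars for the SD. INSL3 is at 10 in 1 atretic follicle and between 11.7 and 12.5 in the other 18, and NR5A1 is at 7.2 to 7.3 in 3 of the 5 atretic follicles.

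NR5A1 had a lower mean in atretic than in small healthy theca on all 3 detected probe sets, of which 2 passed the test. Its values in 2 of the 5 atretic follicles lay inside the healthy range. Its brightest probe set had signals of 7.3, 8.1, 7.9, 7.3 and 7.2 in atretic replicates 1 to 5, and 7.6, 8.3, 8.3 and 8.2 in large replicates 1 to 4. In small healthy follicles it ran from 7.6 to 8.3, with a median of 8.05. Atretic replicates 1, 4 and 5 thus lay below every healthy follicle, large ones included, whereas replicates 2 and 3 lay inside the healthy range. The second probe set showed the same 3 atretic follicles lowest among the small follicles, at 5.8, 5.9 and 5.6 against 6.2 to 7.0 in small healthy follicles. The third probe set had 4.2, 4.2 and 4.0 in these 3 follicles, 4.6 and 4.6 in atretic replicates 2 and 3, and 4.5 to 5.1 in small healthy follicles.

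By limma with adjustment over all 15470 probe sets tested, 2 of the 3 detected NR5A1 probe sets passed as lower in atretic against small healthy follicles. The third fell by 0.51 on the log2 scale (SE 0.12, adjusted p = 0.00820), that is 1.42-fold lower, and the second fell by 0.52 (SE 0.18, adjusted p = 0.0391). The brightest differed by -0.45 (SE 0.17, adjusted p = 0.0509) and did not pass. Single exact permutation tests, two-sided, gave p = 0.0370 for the brightest, 0.0220 for the second and 0.00333 for the third. The call of the third probe set was lost only against rounded follicles alone, where the difference was -0.52 (adjusted p = 0.0650), and it passed in 24 of 25 alternatives. That of the second was lost in 13 of 26, among them the fits without atretic replicate 5 (-0.39, adjusted p = 0.129), without atretic replicate 1 (-0.44, adjusted p = 0.108) and without atretic replicate 4 (-0.465, adjusted p = 0.0890). It was also lost without rounded replicate 1, 2 or 3 or columnar replicate 1 or 3, with adjusted p between 0.0504 and 0.0645. The brightest probe set passed in 9 of 26 alternatives and did not pass in 17, with adjusted p up to 0.160. Among the 9 were the fits without atretic replicate 2 or 3, rounded replicate 5 or columnar replicate 2 or 5, with adjusted p between 0.0210 and 0.0445.

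Large follicles gave no passing difference in NR5A1, and 1 of them stood apart. The brightest probe set averaged 8.10 in the 4 large follicles (SD 0.34) and 8.01 in the 10 small healthy ones (SD 0.28), a difference of 0.09 (SE 0.17, adjusted p = 0.760) with a 95% interval of -0.26 to 0.44. Without large replicate 1 it was 0.26, and without large replicate 2 or 3 it was 0.023. Large replicate 1 was the lowest large follicle on all 3 detected probe sets, at 7.6, 5.8 and 4.3 against 8.2 to 8.3, 6.9 to 7.0 and 4.8 to 4.9 in the other large follicles. The remaining NR5A1 probe set had signals of 1.6 to 2.2 on all arrays, below the detection limit of 3, and was not tested.

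NR0B1, the repressor of NR5A1, had low signals, and its detected probe set was higher in atretic follicles. Signals were 4.4, 3.8, 4.5, 4.7 and 4.4 in atretic replicates 1 to 5, and 4.2, 3.3, 4.1 and 4.4 in large replicates 1 to 4. Small healthy follicles ran from 3.1 to 4.4, with a median of 3.5. Only 2 atretic follicles lay above every small healthy one, so the groups overlapped. NR0B1 averaged 4.36 ± 0.34 (SD, n = 5) in atretic and 3.66 ± 0.45 (SD, n = 10) in small healthy follicles, and it rose by 0.70 on the log2 scale, or 1.62-fold (SE 0.21, limma's adjusted p = 0.0215). The two-sided exact permutation test gave p = 0.0143. The call was lost in 4 of 25 alternatives, with 0.56 (adjusted p = 0.180) against rounded follicles alone, 0.615 (adjusted p = 0.0557) without atretic replicate 4 and 0.69 (adjusted p = 0.0513) without atretic replicate 5 among them.

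The other probe set of NR0B1 ran the opposite way, at 2.52 ± 0.16 (SD, n = 5) in atretic and 2.80 ± 0.18 (SD, n = 10) in small healthy follicles. All 19 of its signals were between 2.4 and 3.0, so it did not reach the detection limit and stayed out of the filtered fit. Without the filter on low signals it passed as lower in atretic follicles, with a difference of -0.28 (SE 0.094, 95% interval -0.48 to -0.08, limma's adjusted p = 0.0413). As a mean over both probe sets NR0B1 differed by 0.21 (two-sided exact permutation p = 0.131), so the rise rests on the choice of the brighter probe set. Over the 19 arrays the correlation of the 2 probe sets was -0.37. Between large and small healthy follicles NR0B1 differed by 0.34 (SE 0.25, adjusted p = 0.405). By mean signal the order was atretic, large (4.00 ± 0.48, SD, n = 4), rounded (3.80 ± 0.55, SD, n = 5) and columnar (3.52 ± 0.32, SD, n = 5), and no neighbours in it differed by more than the SD of the more variable of the pair.

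GATA4 had the smallest spread of the detected probe sets among small healthy follicles. In atretic replicates 1 to 5 it had 7.2, 7.4, 7.3, 7.5 and 6.9, and in large replicates 1 to 4 it had 7.4, 7.3, 7.3 and 7.2. The 10 small healthy follicles lay between 7.4 and 7.7, with an SD of 0.105, against a median SD of 0.199 over the 1649 probe sets within 0.5 of its mean level. Below this range lay 3 of the 5 atretic and 3 of the 4 large follicles, and the others lay inside it. The signals are rounded to 0.1, so follicles at 7.3 lay only 1 rounding step below the range. The differences were small: -0.24 (SE 0.090, limma's adjusted p = 0.0512) for atretic and -0.20 (SE 0.076, adjusted p = 0.132) for large against small healthy follicles. Neither passed, although the exact permutation p (not adjusted, and two-sided) was 0.0153 for atretic and 0.00799 for large follicles. Without atretic replicate 5, at 6.9, the atretic difference was -0.15 (adjusted p = 0.174). In atretic follicles GATA4 passed in 9 of 26 alternatives, among them those without atretic replicate 4 (-0.30, adjusted p = 0.0277), rounded replicate 1 (adjusted p = 0.0457) or columnar replicate 4 (adjusted p = 0.0491). Both 95% intervals excluded a 2-fold change.

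GATA6, the paralog of GATA4, leaned the other way without passing a test. It had 7.9, 8.1, 8.1, 7.9 and 7.9 in atretic replicates 1 to 5, and 7.7, 7.9, 8.4 and 8.1 in large replicates 1 to 4. Small healthy follicles ran from 7.3 to 8.2, with a median of 7.75, and every atretic follicle and 3 of the 4 large ones lay within that range. The differences against small healthy follicles were 0.26 (SE 0.13, adjusted p = 0.137) for atretic and 0.305 (SE 0.16, adjusted p = 0.266) for large follicles.

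NR2F2, the factor of mesenchymal cells, had bright signals in all follicles and slightly higher ones in atretic theca. Its brightest probe set had 9.4, 9.7, 9.4, 9.7 and 9.6 in atretic replicates 1 to 5, and 9.1, 9.4, 9.2 and 9.3 in large replicates 1 to 4. Small healthy follicles ran from 9.0 to 9.7, with a median of 9.25, so no atretic follicle lay outside the small healthy range. In atretic follicles it rose 1.24-fold, or by 0.31 on the log2 scale (SE 0.11, limma's adjusted p = 0.0427). This call was lost in 14 of 26 alternatives, with 0.24 (adjusted p = 0.254) against rounded follicles alone, 0.23 (adjusted p = 0.117) with each array centred on its median, and 0.275 (adjusted p = 0.102), 0.275 (adjusted p = 0.0975) and 0.30 (adjusted p = 0.0912) without atretic replicate 2, 4 or 5. It was also lost without rounded replicate 1, 2 or 5 or columnar replicate 1, 2, 3 or 5, with adjusted p between 0.0509 and 0.0701. The second probe set of NR2F2 differed by 0.15 (SE 0.11, adjusted p = 0.279).

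The dimmest probe set of NR2F2, the third, had another pattern than both others. It had signals of 4.3, 4.5, 5.4 and 4.0 in large follicles, against 2.9 to 4.5 in small healthy follicles. Its difference in large follicles, 0.80 (SE 0.295), was the largest of the 10 detected probe sets in the 4 comparisons, but it did not pass (limma's adjusted p = 0.126) and the brightest probe set differed by 0 in the same follicles. Large replicate 3, at 5.4, was the one large follicle above all small healthy ones, and without it the difference was 0.52 (adjusted p = 0.340). Which transcripts these probe sets read was not tested.

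**Figure D2:**
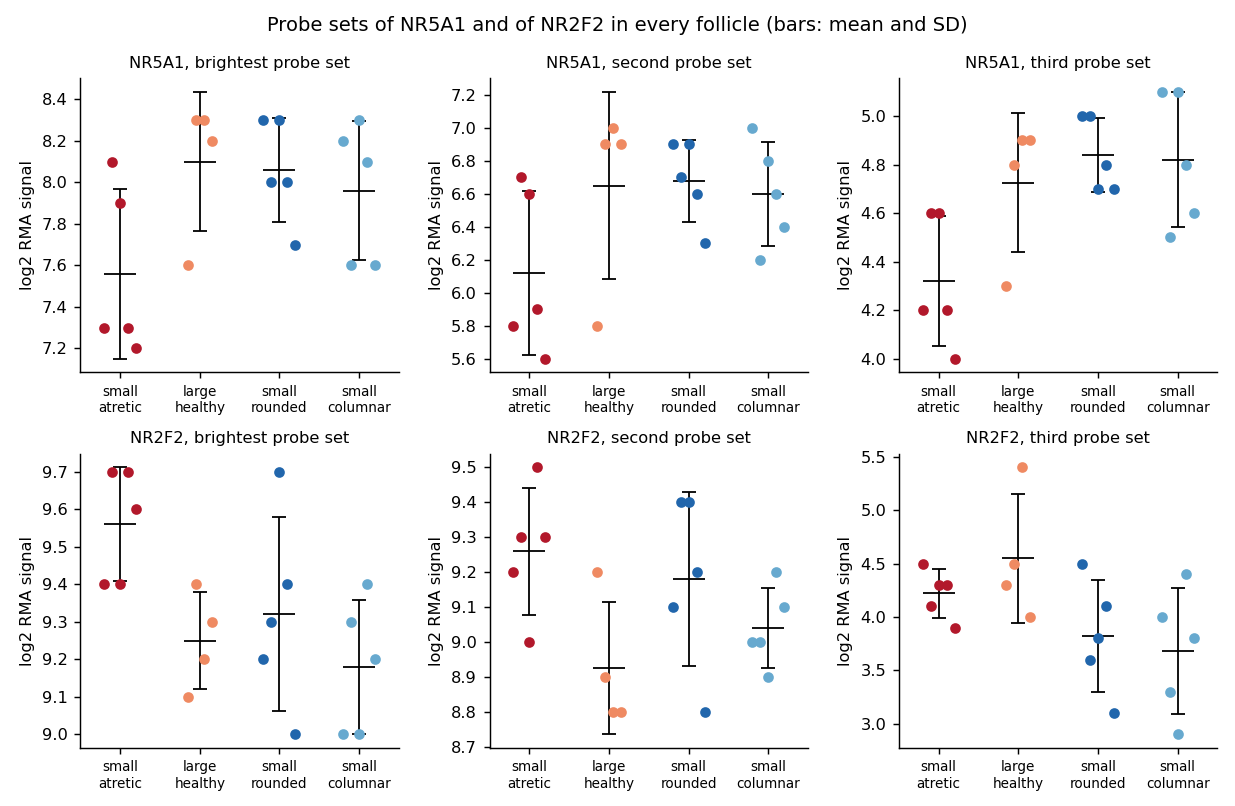
Log2 RMA signal (y axis, scaled separately in each panel) of the 3 detected probe sets of NR5A1 (upper row) and the 3 of NR2F2 (lower row) in each follicle, with the mean as a horizontal bar and the SD as error bars. The NR5A1 probe sets place the same 3 atretic follicles and the same large follicle lowest, whereas the third NR2F2 probe set reaches 5.4 in a large follicle and is spread between 2.9 and 4.5 in small healthy ones.

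Probe sets of 1 gene agreed for NR5A1 and less so for NR2F2. Over the 19 arrays, which share groups and are given here as a description, the correlation was 0.957 between the first and the second, 0.886 between the first and the third and 0.912 between the second and the third detected probe sets of NR5A1. For NR2F2 it was 0.680 between the 2 bright probe sets, and 0.244 and 0.0322 between these and the third.

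Across the comparisons, 10 of the 12 probe sets passed the detection filter in each fit, and the 2 others are the undetected ones of NR5A1 and NR0B1. Between atretic and small healthy follicles 2 of these 10 rose and 2 fell, that is 4, from the 3 genes NR5A1, NR0B1 and NR2F2, where 31.9% of all tested probe sets passed (an adjusted p under 0.05). A share of 4 in 10 is near that background, and 16.9% of all probe sets rose and 15.1% fell. At an unadjusted p under 0.05 there were 6 members, where 45.2% of all probe sets reached it. The follicles of both groups overlapped for all 10 members, where 3.09% of all probe sets did not overlap. The 95% interval excluded a 2-fold change for 9 of the 10 and for 87.8% of all. No member changed 2-fold with a passing p, where 3.68% of all probe sets did. The member count was 0 against rounded follicles alone, where all probe sets gave 244 passes rather than 4939. Against the same number of columnar follicles alone it was 3, where all probe sets gave 4933. Without atretic replicate 5 it was 1, where they gave 2978.

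Between large and small healthy follicles 0 of the 10 passed, where 3.58% of all tested probe sets passed by limma, and 2 had an unadjusted p under 0.05, where 24.4% of all did. A linear model without moderation also gave 0 members. The 95% interval excluded a 2-fold change for 9 of the 10, the exception being the third NR2F2 probe set, and for 91.1% of all probe sets.

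Between atretic and large follicles 0 of the 10 passed, with 4 at an unadjusted p under 0.05, where limma called 0% of 15326 probe sets and 2763, or 18%, had an unadjusted p under 0.05. The differences nearest to the threshold were those of NR2F2, at 0.31 (SE 0.11, adjusted p = 0.192) and 0.335 (SE 0.13, adjusted p = 0.218) for its 2 bright probe sets. Rounded and columnar follicles gave 0 members, with 0 at an unadjusted p under 0.05, where limma passed 0% of all probe sets and 360, or 2.31%, had an unadjusted p under 0.05. The differences between rounded and columnar follicles were at most 0.28 in size, and all 10 intervals excluded a 2-fold change, as did 95.6% of all. The linear model without moderation gave 0 members in both of these comparisons.

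**Figure D3:**
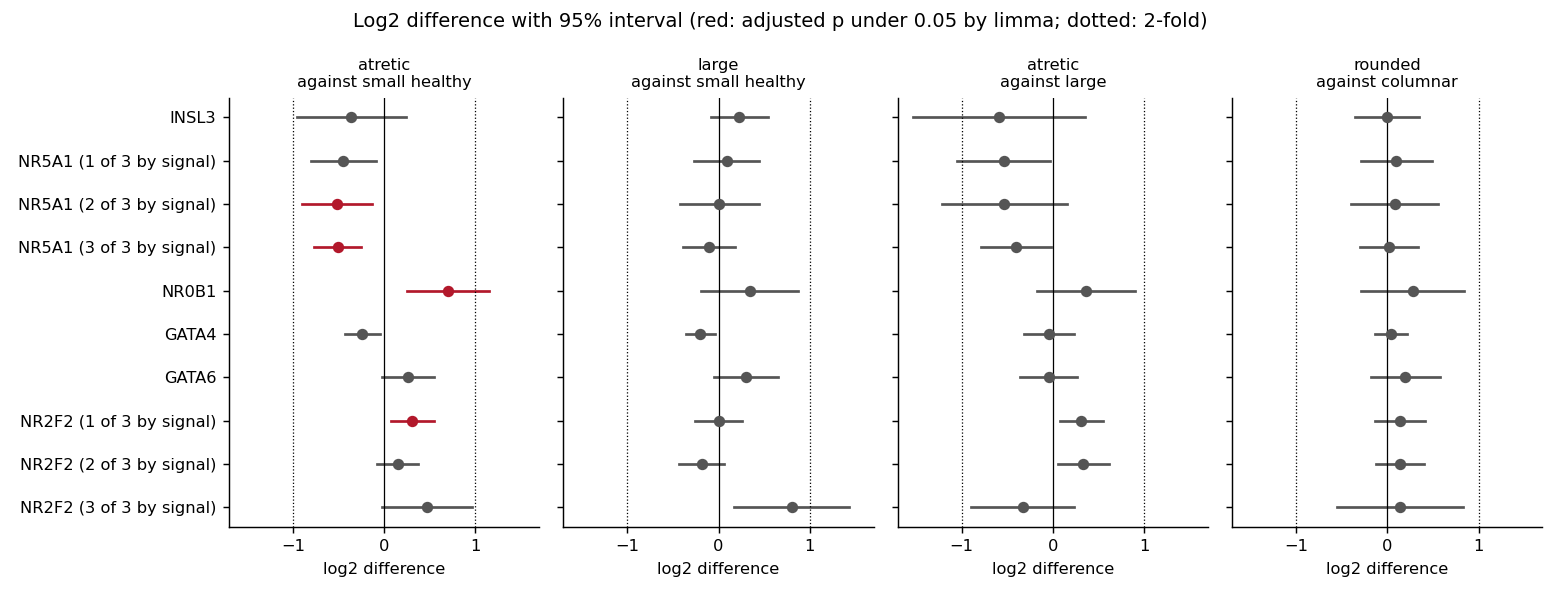
Log2 difference (x axis, first group minus second) with its 95% interval for the 10 detected probe sets of the 6 genes (rows) in 4 comparisons (panels), with red for an adjusted p under 0.05 by limma and dotted lines at a 2-fold change. Only the panel of atretic against small healthy follicles holds red points, which are 2 probe sets of NR5A1 on the left of 0 and 1 each of NR0B1 and NR2F2 on the right.

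Most genes that NR5A1 and its partners regulate did not pass in atretic follicles. Of 20 listed steroidogenic and cholesterol-handling genes 15 are on the array, and in atretic against small healthy follicles 1 fell, 2 rose and 12 did not pass, where 31.9% of all tested probe sets passed, with a median difference of -0.19 over the 15, beside -0.03 over all probe sets. CYP11A1, the side-chain cleavage enzyme that starts steroid synthesis, had 8.9, 9.3, 10, 9.3 and 7.4 in atretic replicates 1 to 5, against 9.8 to 10.5 in small healthy follicles, and fell by 1.31 (SE 0.29, limma's adjusted p = 0.00529). The genes that rose were HSD17B4, a peroxisomal enzyme that oxidises steroids and fatty acids (0.31, SE 0.088, adjusted p = 0.0168), and NPC2, a cholesterol carrier of the lysosome (0.74, SE 0.14, adjusted p = 0.00254).

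CYP17A1, the enzyme that makes androgens, had 7.0, 7.2, 8.0, 4.1 and 3.0 in atretic replicates 1 to 5, against 5.2 to 8.6 in small healthy follicles. Its mean difference of -1.47 did not pass (SE 0.72, adjusted p = 0.121). STAR, which brings cholesterol into mitochondria, differed by 0.15 (SE 0.60, adjusted p = 0.863), HSD3B1, which forms progestagens, by -0.37 (SE 0.29, adjusted p = 0.322), and LHCGR, the LH receptor, by -0.39 (SE 0.29, adjusted p = 0.300). Atretic replicate 5, the follicle with the low INSL3, was also the lowest atretic follicle for CYP17A1, CYP11A1, STAR (7.2), HSD3B1 (8.0) and LHCGR (2.1). Atretic replicate 4 had low CYP17A1 with INSL3 at 11.8. In large follicles 0 of the 15 genes passed by limma, where 3.58% of all tested probe sets passed. An unadjusted p under 0.05 was reached by 3, where 24.4% of all reached it. The median of the 15 was 0.12, beside -0.03 over all probe sets.

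Among partners and co-regulators of these factors, 22 of 39 listed genes are on the array and 17 were tested between atretic and small healthy follicles, of which 7 rose and 1 fell, where 16.9% of all probe sets rose and 15.1% fell. The median over the 22 was 0.265, beside -0.03 over all probe sets. FOS, a subunit of the AP-1 factor, had 9.9, 8.4, 8.9, 9.3 and 9.5 in atretic follicles, against 6.2 to 9.1 in small healthy follicles, and rose by 1.64 (SE 0.35, limma's adjusted p = 0.00499). NR4A2, an orphan nuclear receptor, rose by 0.76 (SE 0.15, adjusted p = 0.00358), CITED2, a co-regulator that acts with NR5A1 in the adrenal gland of mice, by 1.16 (SE 0.27, adjusted p = 0.00725), and RXRA, the retinoid X receptor that partners many nuclear receptors, by 0.57 (SE 0.11, adjusted p = 0.00286). SREBF2, the regulator of cholesterol synthesis, fell by 0.50 (SE 0.17, adjusted p = 0.0380).

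In large follicles 2 of 18 tested partners rose and 0 fell, where 3.58% of all tested probe sets passed in either direction. The median over the 22 was 0.165, beside -0.03 over all probe sets. CEBPB, a factor induced by gonadotropins, rose by 1.18 (SE 0.28, adjusted p = 0.0341). NR5A2, the paralog of NR5A1 known from granulosa cells, rose by 0.895 (SE 0.22, adjusted p = 0.0404), with a small healthy mean of 2.78 that lies below the detection limit. It entered the fit only through the large follicles, where it was high, so its pass and its place in the count are not independent of the filter. NR5A2 had 3.1, 4.3, 4.1 and 3.2 in large replicates 1 to 4, and the 2 higher ones are also the 2 large follicles with the most CYP19A1, the aromatase of granulosa cells, at 5.8 and 3.7 against 1.9 and 3.3 in the others. The part of granulosa cell RNA in this was not tested. For BMP and LH signaling, 17 of 22 listed genes were tested, and 2 rose and 4 fell in atretic follicles, near the background of 31.9%. PRKACA, a catalytic subunit of protein kinase A, fell by 0.38 (SE 0.082, adjusted p = 0.00492), INHBA, a subunit of activin, fell by 1.47 (SE 0.37, adjusted p = 0.00962) and is also a granulosa marker, and BMPR1A, a BMP receptor, rose by 0.35 (SE 0.10, adjusted p = 0.0192). In large follicles 1 of the 17 rose and 1 fell, where 3.58% of all tested probe sets passed. ADCY2, an adenylate cyclase, rose by 1.5 there (SE 0.26, adjusted p = 0.00816). ID1, a target of BMP signaling, was lower in both atretic (-0.53, SE 0.13, adjusted p = 0.0103) and large follicles (-0.55, SE 0.12, adjusted p = 0.0246). Both comparisons use the same small healthy follicles. For the hedgehog pathway only 2 of 14 listed genes were tested, and BOC, a co-receptor, rose in atretic follicles (0.82, SE 0.17, adjusted p = 0.00375). Of all tested probe sets 16.9% rose there, and a count from 2 genes says little about the pathway. None of the 7 listed relatives and receptors of INSL3 is among the annotated symbols.

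Immune markers rose with the atretic group, and other marker lists did so in part or in both directions. Of 10 listed immune markers 8 are on the array, and all 7 tested rose in atretic follicles, where 16.9% of all probe sets rose, CD68 of macrophages by 2.70 (SE 0.46, adjusted p = 0.00187) and CD14 of monocytes by 2.24 (SE 0.37, adjusted p = 0.00171). The mean log2 signal of the 8 was 5.19, 4.59, 4.33, 5.39 and 5.39 in atretic replicates 1 to 5, 3.90 to 4.74 in large and 3.29 to 4.24 in small healthy follicles. The 3 atretic follicles with low NR5A1, replicates 1, 4 and 5, were the 3 with the highest immune signal. Large replicate 1, with the lowest NR5A1 of the large follicles, had the highest immune signal among these. Small healthy follicles did not show this pairing throughout. Rounded replicates 1, 3 and 5 had the highest immune signal there, at 4.24, 4.225 and 4.175. Their brightest NR5A1 probe set was at 8.3, 8.3 and 7.7, where small healthy follicles ran from 7.6 to 8.3. Atretic replicates 1, 4 and 5 were also the highest atretic follicles for fibroblast and matrix markers (9.26, 9.65 and 9.46). They were the highest for smooth muscle and pericyte markers (6.69, 7.01 and 7.23) and the lowest for granulosa markers (6.09, 6.06 and 5.40). Large replicate 1 was the extreme large follicle in the same direction for each of these lists. Endothelial markers did not give this order in atretic follicles. The part of immune cells, fibroblasts, smooth muscle cells and granulosa cells in the NR5A1, NR0B1 and NR2F2 differences was not tested. Of 8 fibroblast and matrix markers PDGFRA and FBLN1, that is 2, rose in atretic follicles, where 16.9% of all probe sets rose, and the mean of the 8 was 9.09 to 9.65 in atretic and 8.79 to 9.275 in small healthy follicles. Of 9 smooth muscle and pericyte markers MYH11 and DES rose and CSPG4 and MCAM fell, where 31.9% of all tested probe sets passed. Of 7 tested endothelial markers 0 passed, with 1 at an unadjusted p under 0.05, where 45.2% of all reached it. Of 7 tested granulosa markers GATM rose (0.85, SE 0.26, adjusted p = 0.0228), and INHBA and AMH (-0.97, SE 0.28, adjusted p = 0.0187) fell, beside the same 31.9% of all. The median difference of the 9 granulosa markers on the array was -0.44, and their mean was 5.40 to 6.96 in atretic and 6.30 to 7.23 in small healthy follicles. The part of granulosa cell RNA in the INHBA difference was not tested. The mean of the 6 markers of theca steroidogenic cells, INSL3 included, was 6.28 to 8.85 in atretic, 8.02 to 9.65 in large and 7.62 to 9.12 in small healthy follicles, and none of the 6 was below the detection limit on all arrays.

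By the sample records the RNA preparation differed with the group, with a RNAqueous Micro kit and 0.25 µg of labelled RNA for atretic follicles, Trizol and a RNeasy column for large ones and a RNeasy mini kit for small healthy ones, with 2 to 5 µg for all healthy follicles. The study's methods describe Trizol with a column and a single amount of RNA for the thecal samples. By the records, preparation and follicle type cannot be told apart. The 3′ minus 5′ signal of the actin controls, which grows as RNA degrades, was 0.7 to 1.8 in atretic, 0.8 to 1.7 in large and 1.0 to 2.2 in small healthy follicles, so these ranges overlapped. Poly-A control transcripts averaged 4.78 in the 5 atretic follicles (SD 0.32), 5.88 in the 4 large ones (SD 0.28) and 4.57 in the 10 small healthy ones (SD 0.22). Their ranges were 4.45 to 5.16, 5.63 to 6.27 and 4.20 to 4.88, so every large follicle lay above all others. The part of this in the comparisons with large follicles was not tested. Atretic replicate 5 and rounded replicate 5 stood somewhat apart, with median correlations to the other arrays of 0.970 and 0.970, against 0.977 to 0.985 for the rest. With both left out, a choice made after seeing the data, 1 member probe set passed between atretic and small healthy follicles.

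Within the 10 small healthy follicles, INSL3 had a wider spread than the median transcript of its level, and its coefficients with GATA6, NR0B1 and several steroidogenic genes were positive without passing adjustment. The SD of INSL3 was 0.254, against a median of 0.0843 for the 79 probe sets within 0.5 of its level. That level is close to the top of the scale. At the levels of the other detected member probe sets the median SD was 0.195 to 0.234. The brightest NR5A1 probe set had an SD of 0.285, so the SD of INSL3 was not the widest of the members. The part of the top of the scale in the low median was not tested. NR0B1 had an SD of 0.450 and GATA6 of 0.294, where probe sets of like level had medians of 0.211 and 0.196. Of 20 relations computed, 15 between members and 5 between INSL3 and other theca markers, 0 passed after adjustment over the 20, with 6 at an unadjusted permutation p under 0.05. The values below therefore stand as a description of these follicles.

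GATA6 and NR0B1 had the highest coefficient (r = 0.780, permutation test, p = 0.00929, adjusted p = 0.0803, Spearman's rho = 0.762, adjusted p = 0.0873, n = 10), and r was 0.737 without the 2 follicles farthest from the median of NR0B1. INSL3 had r = 0.745 with GATA6 and r = 0.729 with NR0B1 (permutation tests, adjusted p = 0.0803 each), which became 0.545 and 0.544 without the 2 follicles farthest from the median of INSL3. With STAR, HSD3B1 and CYP17A1 its r was 0.718, 0.685 and 0.685 (permutation tests, adjusted p = 0.0803 each). With CYP11A1 it was 0.0361 (adjusted p = 0.977), and with NR5A1 0.538 (adjusted p = 0.211). GATA4 ran against INSL3, with r = -0.581 (adjusted p = 0.186), and NR2F2 had r = 0.0197 with it (adjusted p = 0.977).

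**Figure D4:**
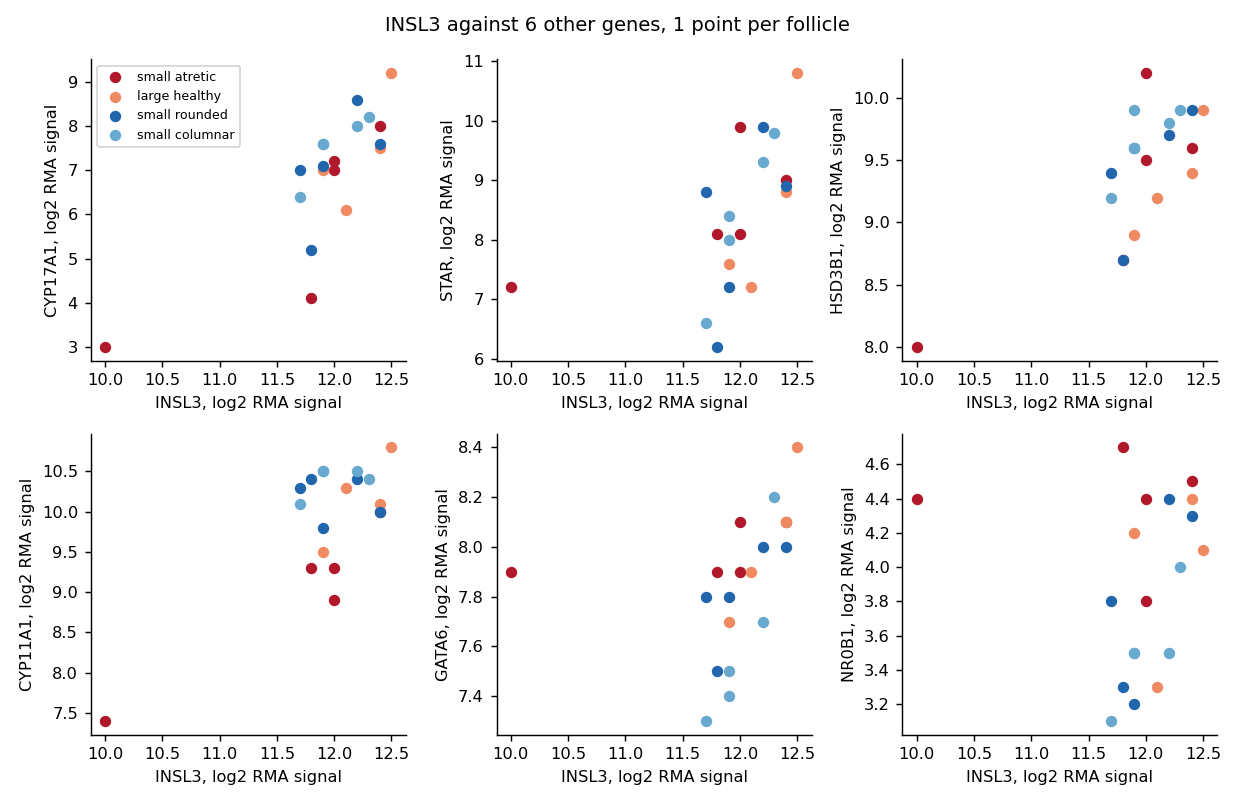
Log2 RMA signal of INSL3 (x axis) against that of CYP17A1, STAR, HSD3B1, CYP11A1, GATA6 and NR0B1 (y axes), 1 point per follicle, coloured by group. In the 10 small healthy follicles (blue shades) r with INSL3 is 0.685 for CYP17A1, 0.718 for STAR, 0.685 for HSD3B1, 0.0361 for CYP11A1, 0.745 for GATA6 and 0.729 for NR0B1, none with an adjusted p under 0.05, and the point far to the left is atretic replicate 5.

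Over all 19 arrays, the named genes whose pattern was most like that of INSL3 by Pearson's r, among 5018 genes with a mean signal over 5, were ATP6V0B, a subunit of the proton pump of vesicles (0.886), GSTA2, a glutathione transferase (0.881), INHA, the alpha subunit of inhibin (0.878), COQ2, an enzyme of ubiquinone synthesis (0.871), and LRPAP1, a chaperone of lipoprotein receptors (0.867). INHA is also a listed granulosa marker, and the part of granulosa cell RNA in its likeness was not tested. The coefficients of these genes share the low point of atretic replicate 5. Without it ATP6V0B and LRPAP1 had 0.914 and 0.914, INHA 0.825, COQ2 0.711 and GSTA2 0.600. In the small healthy follicles alone ATP6V0B had 0.927, LRPAP1 0.930 and INHA 0.896, whereas COQ2 had 0.575 and GSTA2 0.527. These follicles are among the 19 arrays by which the genes were picked, so the values are no independent check. By the same measure over 19 arrays, CYP17A1 stood 15th (0.803), CYP11A1 25th (0.764), HSD3B1 33rd (0.751), NR5A1 142nd (0.619) and STAR 274th (0.517). Without atretic replicate 5 their coefficients with INSL3 were 0.665 for CYP17A1, 0.271 for CYP11A1, 0.520 for HSD3B1, 0.524 for NR5A1 and 0.673 for STAR.

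The genes most like NR5A1 were HDAC6, a cytoplasmic deacetylase (0.876), TKT, the transketolase of the pentose phosphate pathway (0.875), CCDC69 (0.844), ALDH3B1, an aldehyde dehydrogenase (0.816), and COLEC11, a collectin (0.814). In the small healthy follicles alone these 5 had 0.655, 0.676, 0.560, 0.603 and 0.789, again on arrays that were part of the choice. HSD3B1 stood 49th (0.712), CYP17A1 76th (0.662), CYP11A1 81st (0.659), INSL3 135th (0.619) and STAR 914th (0.292) in likeness to NR5A1. In the small healthy follicles alone r with NR5A1 was 0.696 for HSD3B1, 0.486 for CYP17A1, -0.26 for CYP11A1, 0.538 for INSL3 and 0.501 for STAR.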

How the data were processed

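Theca interna RNA of 19 follicles was labelled for Affymetrix bovine arrays of 1 colour. The authors summarised probes by RMA with quantile normalization (Partek 6.5 by the submitters' processing notes) and deposited log2 signals, rounded to 0.1. The precision is limited by the number of arrays and by this rounding. The annotation names several genes for 86 of the 24127 probe sets, none for 10724, and 1 gene for 13292 that are not among the 111 array controls, of which 13263 were found by gene ID in a RefSeq table, with 0 symbols changed.

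Probe sets entered if 1 follicle type had log2 signals over 3 in 50% or more of its arrays, for limma 3.58.1 (R 4.3.3), with Benjamini-Hochberg adjustment. A probe set passed at an adjusted p under 0.05. Comparisons set large or atretic against all 10 small healthy follicles, atretic against large, and rounded against columnar in a fit of 14 healthy arrays. Exact permutation tests were two-sided, and correlations used 100000 permutations. The model fits were tested on simulated data.

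Members and gene lists were chosen with earlier results of these data known. The brightest probe set of a gene stands for it in lists and relations. Named genes were the members, the theca markers, INSL3's neighbours, the 5 genes most like INSL3 and NR5A1, and from each list and comparison at most 4 genes that passed, by p. SREBF2 and CYP19A1 fall outside this rule and were named after their values were seen. Alternatives were other filters, variance models and normalizations, 1 fit of all arrays, single control groups, a replicate block and each array left out. Replicate numbers came from the titles, and not all same-numbered follicles deviated together.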

Additional observations from a re-analysis of the deposited data

Results flagged for a closer look

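Dixon's ratio was computed for each of the 12 probe sets in each of the 4 groups, that is 48 times, and about 1 in 20 would stand out by chance. It marked 4 values. INSL3 in atretic replicate 5, at 10, lay far from the other atretic follicles, of which the nearest was at 11.8. NR5A1 in large replicate 1 was marked on all 3 detected probe sets, at 7.6, 5.8 and 4.3, where the nearest other large follicle had 8.2, 6.9 and 4.8. These 3 probe sets read 1 gene in 1 follicle and are not independent.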

How the results depend on the processing

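Of 40 member differences 34 passed in no alternative. Of these 40, 2 were at 0 and had no direction, and 29 of the other 38 turned in no alternative. Over all 888 alternatives 25 turned a direction. The large against small healthy count, 557 in the main setting, was 304 with signals over 5, 339 without moderation, 341 with the replicate block, 258 with columnar and 18 with rounded follicles as the sole controls, and 159 without the 2 arrays highest in CYP19A1. Leaving out single arrays gave 154 (without large replicate 4) to 982 (without rounded replicate 1), with counts also moved by over 1.5 times without rounded replicate 4 (334), columnar replicate 1 (300) or 2 (298), and large replicate 2 (328) or 3 (240). For atretic against small healthy follicles the count of 4939 became 3162 with signals over 5, 244 against rounded follicles alone, 2473 without the 2 least correlated arrays, and 2978 (without atretic replicate 5) to 5690 without single arrays. Against columnar follicles alone it was 4933, with 3 members. Of the members, 5 passed without the filter on low signals, 0 passed against rounded follicles alone, 1 without the 2 least correlated arrays, and 1 to 5 without single arrays. For atretic against large follicles the count of 0 became 122 in 1 fit of all 19 arrays, and 0 to 125 without single arrays. The cause of these moves was not tested, and some settings also had fewer probe sets or arrays. The sets without the 2 arrays were chosen after seeing the data.

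Apart from INSL3 in atretic against small healthy follicles (-0.36), the differences whose direction turned were at most 0.14 in size. The second NR5A1 probe set in large against small healthy follicles was -0.03 with centred arrays and against rounded follicles alone, -0.0333 without the 2 arrays highest in CYP19A1, -0.0625 with the replicate block, and -0.11 to 0.29 without single arrays. The third was -0.16 to 0.0367 without single arrays. INSL3 in atretic against small healthy follicles was 0.0278 without the 2 least correlated arrays and -0.55 to 0.05 without single arrays. In atretic against large follicles GATA4 was 0.05 with the replicate block, and GATA4 was -0.10 to 0.05 and GATA6 -0.15 to 0.08 without single arrays. In rounded against columnar follicles the third NR5A1 probe set was -0.0274 after repeated quantile normalization, and without single arrays the second NR5A1 probe set was -0.02 to 0.18, the third -0.06 to 0.09, GATA4 -0.005 to 0.07 and the third NR2F2 probe set -0.055 to 0.32. As means over all probe sets of a gene, NR5A1 was -0.0425 in large against small healthy follicles, NR0B1 0.21 in atretic against small healthy and NR2F2 0.105 in atretic against large follicles, with exact permutation p of 0.756, 0.131 and 0.341. With the replicate block 6 members passed between atretic and small healthy follicles, among 4777 probe sets. Dim signals limit NR0B1, and the top of the scale limits INSL3.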
